A study of Mus musculus with 17 samples.

Results

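Angiotensinogen and 3 further genes of the renin-angiotensin system were followed in the livers of mice given a high-fat diet, an ethanol binge, or both. The genes were Agt, Ace, Agtr1a, and Enpep, and all 7 probes carrying one of these 4 symbols were taken, of 41174 non-control probes on the array. The 4 genes were selected on their log2 differences between the groups in these same arrays, so their values are given as a description and without a test. The array holds 1 probe for Agt, 1 for Enpep, 2 for Agtr1a, and 3 for Ace.

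Livers of 17 male mice were hybridized, 1 array per mouse. The chow group (4 mice) received chow for 3 months and a maltose gavage, and the 1B group (4 mice) chow for 3 months and 1 oral ethanol gavage of 5 g/kg. The HFD group (4 mice) received a high-fat diet with 60% of calories as fat for 3 months and a maltose gavage, and the HFD+1B group (5 mice) the same diet and the same ethanol gavage. Livers were taken 9 hours after the gavage, so the data show a single early time after the binge. The sample labels give the strain as C57BL/6N and the methods name C57BL/6J, and neither source used here gives an age. Liver cDNA carried Cy5 and a reference RNA common to all arrays carried Cy3, without a dye swap, and every value below is a log2 ratio of liver to this reference unless stated otherwise.

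Angiotensinogen is a plasma protein made mainly by hepatocytes. Renin cuts it to angiotensin I, and angiotensin-converting enzyme, the product of Ace, trims this to angiotensin II. Angiotensin II acts through the AT1 receptor, which in mice comes from Agtr1a and Agtr1b, raises blood pressure, and activates hepatic stellate cells, the collagen-producing pericytes of the liver. Aminopeptidase A, the product of Enpep, removes the first residue of angiotensin II, whereas Mas1 and several peptidases belong to the arm that degrades or counters it.

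The Agt promoter is shown here because Agt moved most among the 4 genes and because values of a factor that binds sites of this kind, Stat3, follow further on. It is the 250 bases before the start of Agt on the minus strand at chr8:124569707-124569956, from RefSeq on GRCm38.p6, with the TATA box and the STAT-type site in capitals.
Agt promoter: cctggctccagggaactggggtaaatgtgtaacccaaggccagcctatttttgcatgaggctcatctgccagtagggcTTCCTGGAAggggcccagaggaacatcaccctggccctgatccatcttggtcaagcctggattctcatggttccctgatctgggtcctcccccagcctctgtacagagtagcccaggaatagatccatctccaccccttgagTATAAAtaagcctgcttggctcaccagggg
The match to TATAAA lay 30 to 25 bases before the start, and 12.4% of 32851 promoter windows of this length held one on either strand. The match to TTCNNNGAA lay 172 to 164 bases before the start, and 7.02% of windows held one. These letters do not overlap each other. AGAACA (16.1% of windows), CACGTG (6.02%), and TTGCNNAA (9.56%) were not found in this Agt window on either strand. The Enpep promoter window also held TTCNNNGAA and TTGCNNAA, and Enpep differed by -0.02 between HFD+1B and HFD. A match is a description of the letters and not of binding.

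Between 73.83 and 85.95% of probes were well above background per array. HFD arrays were dimmer, with a median Cy5 signal of 42 to 76 intensity units, against 78 to 114.5 for chow, 48.75 to 111 for 1B, and 68.5 to 137 for HFD+1B. The mean log2 ratio of 5 ribosomal RNA probes stood apart in HFD, at -3.03 on average, against 0.44 for chow, 0.17 for HFD+1B, and -0.36 for 1B, and it moves with every comparison that contains the HFD group. By an identifier that the scanner files share, the arrays lay on 5 slides, each with 3 or 4 of the groups. The labels name no slide, so values within slides rest on that inference. Defining hepatocyte markers were present, with 10 of 10 listed genes that have a probe well above background on all 17 arrays.

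Agt, the substrate of the whole pathway, had its highest mean in the HFD+1B group. In chow, the 4 mice had log2 ratios of -0.96, -0.81, -0.97, and -0.95. In 1B they had -0.88, -0.86, -0.81, and -0.26, and in HFD -1.24, -0.92, -0.94, and -0.98. In HFD+1B the 5 mice had 1.01, -0.53, 1.03, 0.79, and 0.32. All 5 HFD+1B mice lay above every chow and every HFD mouse, whereas HFD+1B mouse 2 lay below 1B mouse 4, so HFD+1B and 1B overlapped.

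The group means of Agt were -1.02 ± 0.15 in HFD (SD, n = 4), -0.92 ± 0.08 in chow (SD, n = 4), -0.70 ± 0.30 in 1B (SD, n = 4), and 0.52 ± 0.65 in HFD+1B (SD, n = 5). Each neighbouring pair in this order overlapped. Agt in HFD+1B exceeded HFD by a log2 difference of 1.54 (SE 0.24), which is 2.91-fold, chow by 1.44 (SE 0.24, 2.71-fold), and 1B by 1.22 (SE 0.24, 2.34-fold). By contrast, 1B differed from chow by 0.22 (SE 0.25) and HFD from chow by -0.10 (SE 0.25), both within about 1 SE of 0. The binge effect on HFD exceeded that on chow by 1.32 (SE 0.34) on the log2 scale. These comparisons share groups, so their values are not independent of each other. Of 19350 genes tested, 81 had a larger difference than Agt between HFD+1B and HFD.

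**Figure D1:**
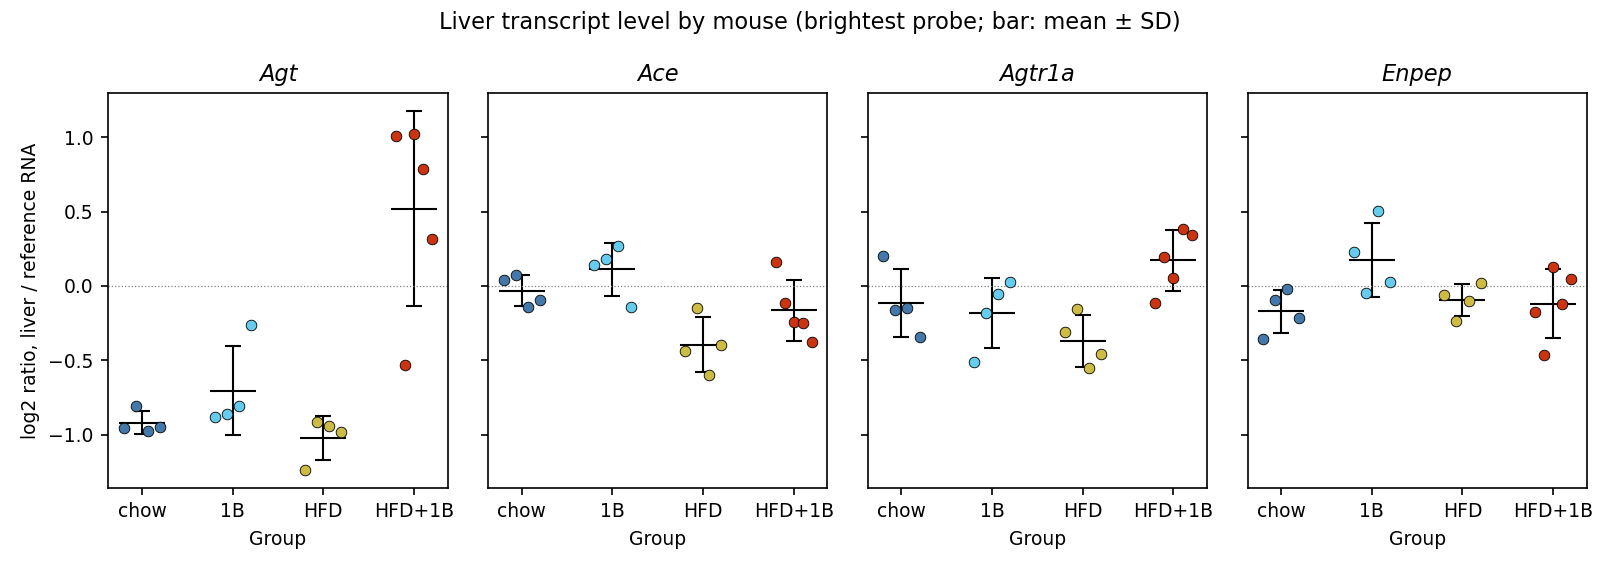
Log2 ratio of liver to reference RNA (vertical axis) of Agt, Ace, Agtr1a, and Enpep in chow, 1B, HFD, and HFD+1B mice (horizontal axis), 1 point per mouse, brightest probe of each gene, with bars for mean ± SD. Agt in the 5 HFD+1B mice reaches from -0.53 to 1.03, above every chow and HFD mouse, and the other 3 genes lie between -0.60 and 0.50 in all groups.

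The spread of Agt was itself uneven. It was narrow in chow, where the 4 mice lay within 0.17 log2 units, and wide in HFD+1B, where they covered 1.56. The uncorrected Cy5 signal of the Agt spot ran from 17120 to 36830 intensity units for HFD+1B mice. It ran from 2718 to 10890 for HFD mice, from 8633 to 17180 for 1B mice, and from 11700 to 13140 for chow mice, with HFD arrays dimmer as a whole. After quantile normalization the log2 Cy5 signal ran from 13.2 to 13.4 for HFD and from 13.2 to 13.3 for chow mice, which overlapped, and from 13.6 to 14.8 for HFD+1B mice. The probe was well above background on all 17 arrays and saturated on none of them.

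Within slides, the HFD+1B value of Agt exceeded the HFD value on 4 of 4 slides, by 1.23 to 2.25. It was higher than in 1B on 4 of 4, by 0.28 to 1.89, and higher than in chow on 4 of 4, by 0.44 to 1.97. The smallest differences from 1B and chow came from slide 3, which held HFD+1B mouse 2. Without that mouse, HFD+1B exceeded HFD by 1.80. With Cy5 signal alone in place of the ratio, HFD+1B exceeded HFD by 1.11, and the excess of the binge effect on HFD over that on chow was 0.88 in place of 1.32. With the ribosomal RNA ratio as a covariate the last value was 0.84 (SE 0.73).

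**Figure D2:**
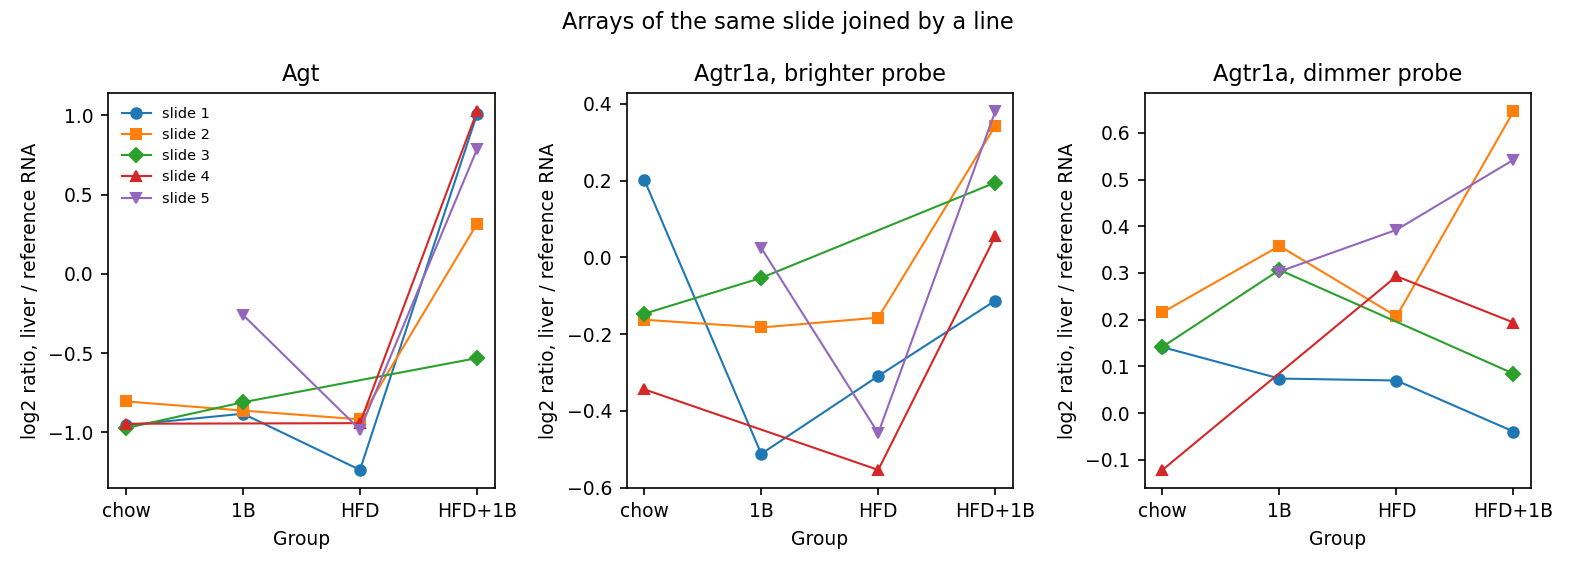
Log2 ratio of liver to reference RNA (vertical axis) by group (horizontal axis) for the Agt probe and both Agtr1a probes, with arrays of 1 slide joined by a line. On every slide with both groups the HFD+1B value of Agt lies above the HFD value, whereas the dimmer Agtr1a probe is higher on 2 of 4 slides.

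Agtr1a, which encodes the main AT1 receptor, differed between its 2 probes. The brighter probe has the sequence below, shown in lower case since no part of it is singled out, and it reads without a stop codon in 1 of 3 sense frames.
Agtr1a brighter probe: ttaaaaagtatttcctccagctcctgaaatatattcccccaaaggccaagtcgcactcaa
By this probe the chow mice had 0.20, -0.16, -0.15, and -0.34, and the 1B mice -0.51, -0.18, -0.05, and 0.02. The HFD mice had -0.31, -0.16, -0.55, and -0.46, and the HFD+1B mice -0.11, 0.20, 0.06, 0.38, and 0.34. All HFD+1B mice lay above all HFD mice, but they overlapped chow and 1B.

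Group means of the brighter Agtr1a probe were -0.37 ± 0.17 in HFD (SD, n = 4), -0.18 ± 0.24 in 1B (SD, n = 4), -0.11 ± 0.23 in chow (SD, n = 4), and 0.17 ± 0.20 in HFD+1B (SD, n = 5), and each neighbouring pair in this order overlapped. HFD+1B exceeded HFD by 0.54 (SE 0.14, 1.46-fold), 1B by 0.35 (SE 0.14), and chow by 0.28 (SE 0.14). HFD was -0.26 from chow (SE 0.14) and 1B -0.07 from chow (SE 0.14). Within slides HFD+1B exceeded HFD on 4 of 4, by 0.20 to 0.84. The dimmer Agtr1a probe gave 0.04 (SE 0.13) for HFD+1B minus HFD, with HFD at 0.24 ± 0.14 (SD, n = 4) and HFD+1B at 0.29 ± 0.30 (SD, n = 5). Its within-slide differences ran from -0.11 to 0.44. Averaged over both probes HFD+1B exceeded HFD by 0.29, and with Cy5 signal alone the brighter probe gave 0.15, so the size of the Agtr1a difference varied with the probe and the setting. With median centring in place of loess it was 0.82.

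Ace, whose product forms angiotensin II and inactivates bradykinin, was lowest in HFD. By the brightest of its 3 probes the chow mice had 0.04, 0.07, -0.14, and -0.10, and the 1B mice 0.14, 0.18, 0.27, and -0.14. The HFD mice had -0.44, -0.15, -0.60, and -0.40, and the HFD+1B mice 0.16, -0.11, -0.25, -0.25, and -0.38. All HFD mice lay below all chow mice, narrowly so between HFD mouse 2 and chow mouse 3, and all lay below all 1B mice, whereas HFD and HFD+1B overlapped.

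The group means of Ace were -0.40 ± 0.19 in HFD (SD, n = 4), -0.16 ± 0.21 in HFD+1B (SD, n = 5), -0.03 ± 0.10 in chow (SD, n = 4), and 0.11 ± 0.18 in 1B (SD, n = 4), with every neighbouring pair overlapping. HFD differed from chow by -0.36 (SE 0.12), HFD+1B from HFD by 0.23 (SE 0.12), and HFD+1B from chow by -0.13 (SE 0.12). The Ace difference of HFD from chow was negative on 3 of 3 slides, from -0.50 to -0.22. It was 0.01 with Cy5 signal alone and 0.09 with the ribosomal RNA ratio as a covariate, so its direction was not kept in these settings, of which the first also replaced loess by quantile normalization. The cause was not tested. A further Ace probe was well above background on 6 arrays only, 5 of them HFD+1B, with uncorrected Cy5 signals of at most 21 units, and its Cy3 signal was above background on 0 arrays, so no difference is read from it. The last Ace probe was well above background on a single array, chow mouse 4, and was not tested.

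Enpep, whose product degrades angiotensin II to angiotensin III, was highest in 1B. The chow mice had -0.35, -0.10, -0.02, and -0.21, the 1B mice 0.23, -0.05, 0.50, and 0.03, the HFD mice -0.06, -0.24, -0.10, and 0.02, and the HFD+1B mice -0.18, -0.47, 0.13, -0.12, and 0.05. The 4 groups overlapped throughout. Means were -0.17 ± 0.15 in chow, 0.18 ± 0.25 in 1B, -0.10 ± 0.11 in HFD (SD, n = 4 each), and -0.12 ± 0.23 in HFD+1B (SD, n = 5). 1B exceeded chow by 0.35 (SE 0.13) and did so on 3 of 3 slides, by 0.05 to 0.58, and HFD+1B was -0.29 from 1B (SE 0.13). Between HFD+1B and HFD the difference was -0.02 (SE 0.13).

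Counted over the 4 genes, groups did not overlap for 2 genes in HFD+1B against HFD, Agt and Agtr1a, where 15.4% of all genes did not overlap. They did not overlap for 1 gene in HFD+1B against chow, Agt (15.7% of all genes), and for 1 gene in HFD against chow, Ace (19.4%). In 1B against chow (12% of all genes) and HFD+1B against 1B (11.5%) all 4 genes overlapped. With the limma threshold of adjusted p set to 0.05, the fit called Agt and Agtr1a in HFD+1B against HFD, where it called 19.4% of genes. Agt was also called in HFD+1B against 1B (11.4% of genes), in HFD+1B against chow (16.3%), and in the interaction, which is the difference of the binge effects (4.42%), although the last call was lost in 13 of 17 fits that left out 1 mouse. Over 8 other settings the call against HFD was made in 7 for Agt and in 5 for Agtr1a, and the interaction call of Agt in 5. The ribosomal RNA covariate, among these 8, called 0 of all probes in either comparison, so a call lost there says nothing about the gene. In 1B against chow (4.14% of genes) and HFD against chow (11.0%) the adjusted fit called 0 of the 4. There an unadjusted limma p of 0.05 or less gave Enpep and Ace, respectively, and the Tukey test of the methods gave 0 and 1, the latter Ace. These counts describe how the genes were picked and nothing is read from them.

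Of the cell types listed, only pericytes and smooth muscle had marker sums that did not overlap between HFD+1B and HFD. The summed Cy5 level of 8 pericyte and smooth muscle markers, after quantile normalization, ran from 11840 to 39440 for HFD+1B mice, the highest for mouse 3. It ran from 6809 to 9628 for HFD mice, from 9451 to 13410 for 1B mice, and from 7723 to 11040 for chow mice, and 7 of the 8 markers were well above background on all 17 arrays. Against HFD, 3 of the 8 rose (37.5%, beside 19.4% of all genes called) and the other 5 did not pass the test. The 6 cholangiocyte markers summed to between 4083 and 7534 for HFD+1B mice and 3483 and 4442 for HFD mice, which overlapped. They summed to between 2975 and 3988 for chow mice. Of the 6, 3 rose against HFD and 1 against chow. The 10 stellate cell markers summed to between 16970 and 28030 for HFD+1B mice, 18020 and 26420 for HFD mice, and 16060 and 25430 for chow mice, and the 10 hepatocyte markers with a probe to between 541700 and 687600, 588500 and 794400, and 441300 and 627400, respectively. Of the 10 stellate cell markers, 3 rose and 0 fell against HFD (30%, beside 19.4% of all genes). Against chow, 3 rose and 0 fell as well (30%, beside 16.3%). Of the 10 hepatocyte markers, 4 rose and 2 fell against HFD (60%), and 4 rose and 1 fell against chow (50%). The 9 neutrophil markers summed to between 1917 and 5475 for HFD+1B mice and 3731 and 8564 for HFD mice. Of these 9, 2 rose and 1 fell against HFD. Of 10 endothelium markers 2 rose and 3 fell against HFD, and of 7 tested markers of macrophages and Kupffer cells 0 were called. The part of these cell types in the values of Agt and Agtr1a was not tested. In whole liver, more cells of a type and more RNA per cell cannot be told apart.

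To see whether other genes of the system moved along, 24 were listed, of which 23 had a probe and 21 were tested in the same fit. In HFD+1B minus HFD, 1 rose and 4 fell, and 16 did not pass the test, with a median difference of 0.03 beside 0.01 over all genes. In HFD+1B minus chow 2 rose and 4 fell, in HFD minus chow 2 rose and 1 fell, in HFD+1B minus 1B 1 rose and 1 fell, and in 1B minus chow 1 fell. The shares called, 23.8% in HFD+1B minus HFD, 28.6% in HFD+1B minus chow, 14.3% in HFD minus chow, 9.52% in HFD+1B minus 1B, and 4.76% in 1B minus chow, stood beside the shares of all genes given above and are not set apart from them by a test. With median centring in place of loess the split in HFD+1B minus HFD turned to 4 risen (Agtr1b, Agtrap, Cma2, and Ctsd) and 0 fallen, and in the authors' table it was 1 risen and 3 fallen. With Cy5 signal alone limma called 0 in that comparison. With ratios, 8 had an unadjusted p of 0.05 or less, and the methods' Tukey test called 1 after adjustment. The count of 5 fell to 1, Anpep, without HFD mouse 3, to 2 without HFD+1B mouse 4, and to 3 without HFD mouse 4 or HFD+1B mouse 2.

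Ren1, the protease that starts the cascade, had a mean of 0.01 ± 0.16 in chow (SD, n = 4), -0.03 ± 0.08 in 1B (SD, n = 4), -0.35 ± 0.14 in HFD (SD, n = 4), and -0.12 ± 0.17 in HFD+1B (SD, n = 5). It fell from chow to HFD by 0.36 on the log2 scale (SE 0.11, adjusted p = 0.042), a call lost in 9 of 17 fits that left out 1 mouse, with median centring, and with Cy5 signal alone, and turned to 0.06 with the ribosomal RNA covariate. Ren2 is a close copy of Ren1, and its probe was dim, with uncorrected Cy5 signals of 10 to 38 units. Whether that probe measures Ren2 RNA at all was not tested, so no difference is read from it. Atp6ap2, the prorenin receptor, rose from chow to HFD by 0.41 (adjusted p = 0.0287), but not past the threshold in the authors' table, with median centring, or with Cy5 alone. Ctsd, a lysosomal aspartyl protease that can cut angiotensinogen, rose from chow to HFD by 0.39 (adjusted p = 0.0235) and from chow to HFD+1B by 0.52 (adjusted p = 0.00116), the latter under all 8 other settings. The call in HFD against chow was lost with median centring and in 4 of 17 fits without 1 mouse. With the ribosomal RNA covariate, a fit that called 0 of all probes in that comparison, Ctsd had 0.06.

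Among receptors, Agtr1b, the second mouse AT1 receptor gene, rose from chow to HFD+1B by 0.40 (adjusted p = 0.0253), and had 0.33 in HFD+1B minus HFD (adjusted p = 0.0605). The rise from chow was not called in 3 of 8 other settings, among them the authors' table and Cy5 signal alone, and ranged from 0.16 to 0.48 over the 8. Agtr2, the AT2 receptor, was not well above background on any array. Mas1, the receptor for angiotensin 1-7, had 0.41 ± 0.59 in chow (SD, n = 4), -0.07 ± 0.23 in 1B (SD, n = 4), 0.30 ± 0.16 in HFD (SD, n = 4), and -0.42 ± 0.42 in HFD+1B (SD, n = 5). It fell from chow to HFD+1B by 0.83 (adjusted p = 0.0217) and from HFD to HFD+1B by 0.72 (adjusted p = 0.0399). The second call was lost in 7 of 17 fits without 1 mouse and with median centring. It was also lost with the ribosomal RNA covariate, but that fit called 0 of all probes in the comparison. With Cy5 signal alone neither fall of Mas1 was called. Without chow mouse 1 the difference of HFD+1B from chow was -0.55 and not called, and it was not called without HFD+1B mouse 2 either. Agtrap, which promotes internalization of the AT1 receptor, rose from HFD to HFD+1B by 0.41 (adjusted p = 0.021) by its brightest probe, but its average over probes was not called.

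Among the peptidases that cleave angiotensins, Anpep was called in pairwise comparisons, and Mme by its brightest probe in the interaction alone. Anpep, aminopeptidase N, which acts on angiotensin III, had 0.33 ± 0.11 in chow and 0.32 ± 0.19 in HFD against -0.27 ± 0.10 in 1B (SD, n = 4 each) and -0.17 ± 0.11 in HFD+1B (SD, n = 5), so both ethanol groups lay below both maltose groups. It fell with the binge by 0.60 on chow (adjusted p = 0.00171) and by 0.49 on HFD (adjusted p = 0.00215), and by 0.50 from chow to HFD+1B (adjusted p = 0.00135), in all 17 fits without 1 mouse. On HFD it fell by 0.24 with median centring, past no threshold (adjusted p = 0.196). With Cy5 signal alone neither the call on HFD nor the call on chow was made. The call on HFD was also lost with the ribosomal RNA covariate, but that fit called 0 of all probes there. Mme, neprilysin, had 0.12 ± 0.58 in chow and -0.94 ± 0.36 in 1B (SD, n = 4 each), but -0.70 ± 0.53 in HFD (SD, n = 4) and -0.24 ± 0.40 in HFD+1B (SD, n = 5). Its binge effect on HFD exceeded that on chow by 1.53 (SE 0.40, adjusted p = 0.0412), the single call of the list in the interaction, where 4.76% of the list was called. That call was lost in 10 of 17 fits without 1 mouse, and the value was -0.38 with the ribosomal RNA covariate. The second Mme probe gave 0.60 (adjusted p = 0.113), which was not called.

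Of the remaining called genes, Mcpt4, a mast cell chymase, fell to HFD+1B by 0.34 from HFD (adjusted p = 0.014), by 0.44 from 1B (adjusted p = 0.00405), and by 0.57 from chow (adjusted p = 0.000271), at low signal, with group medians of 43 to 71 uncorrected Cy5 units. None of these 3 calls was made with Cy5 signal alone, and the call against HFD was not made with median centring either. It was also lost with the ribosomal RNA covariate, but that fit called 0 of all probes against HFD. Ctsg, cathepsin G of neutrophils and mast cells, fell from chow to HFD+1B by 0.31 (adjusted p = 0.0301), a call lost in 3 of 8 other settings and in 4 of 17 fits without 1 mouse. Prep, prolyl endopeptidase, fell from HFD to HFD+1B by 0.43 (adjusted p = 0.03), although its difference was 0.06 with the ribosomal RNA covariate, and Nln, neurolysin, rose from 1B to HFD+1B by 0.45 (adjusted p = 0.0275), not past the threshold when its probes were averaged. The 7 mast cell markers summed to 874.3 to 955.6 in chow and 875.8 to 957.6 in HFD+1B, and the list shares Mcpt4 with the peptidases. Of 6 tested, 0 rose and 2 fell in HFD+1B against chow (33.3%, beside 16.3% of all genes). Against HFD 1 rose and 2 fell (50%, beside 19.4%). The part of mast cells in these values was not tested.

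**Figure D3:**
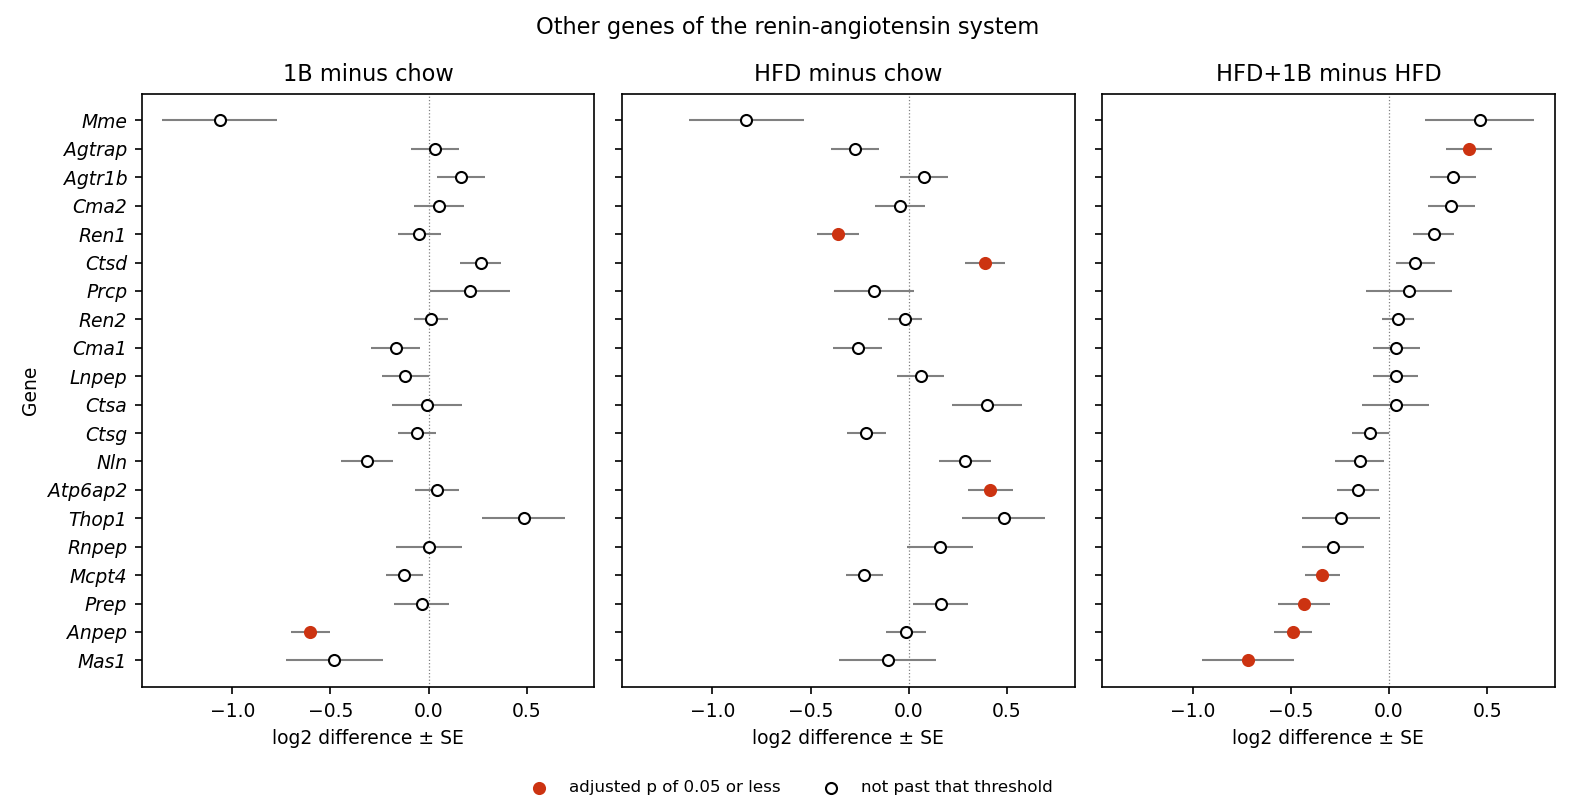
Log2 difference with its SE (horizontal axis) of 20 of the other genes of the renin-angiotensin system (vertical axis) in 1B minus chow, HFD minus chow, and HFD+1B minus HFD, filled where the adjusted p was 0.05 or less. In HFD+1B minus HFD, Mas1, Anpep, Prep, and Mcpt4 lie to the left and Agtrap to the right, and the other 15 genes plotted are open points.

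Of 15 transcription factors known to act on the Agt gene, 5 rose and 3 fell from HFD to HFD+1B (53.3% of the list, beside 19.4% of all genes), with a median difference of 0.25 beside 0.01 over all genes. Stat3, which carries the interleukin-6 signal to acute phase genes, had -1.05 ± 0.11 in chow, -0.28 ± 0.19 in 1B, and -1.18 ± 0.24 in HFD (SD, n = 4 each), and 0.22 ± 0.31 in HFD+1B (SD, n = 5). It rose with the binge by 1.40 on HFD (SE 0.15, adjusted p = 1.79e-05) and by 0.77 on chow (SE 0.15, adjusted p = 0.00705). Cebpb, a factor of the acute phase response, had -0.31 ± 0.21 in chow, -1.12 ± 0.48 in 1B, -0.75 ± 0.39 in HFD (SD, n = 4 each), and 0.55 ± 0.29 in HFD+1B (SD, n = 5). Cebpb rose by 1.30 on HFD (adjusted p = 0.000544), had -0.81 on chow (adjusted p = 0.0506), and its 2 binge effects differed by 2.11 (adjusted p = 0.0024). Cebpd, of the same family, rose on HFD by 0.99 (adjusted p = 0.00161). With the ribosomal RNA covariate, a fit that called 0 of all probes in HFD+1B minus HFD, Stat3 had 0.66, Cebpb 0.69, and Cebpd 0.89.

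Genes known to rise after AT1 receptor stimulation were listed too, although many other signals act on them. Of 12 tested, 4 rose from HFD to HFD+1B (33.3%, beside 19.4% of all genes called in either direction), and 7 rose from chow to HFD+1B (58.3%, beside 16.3%), with a median difference of 0.42 in the former beside 0.01 over all genes. Egr1, an immediate early factor, had -1.91 ± 0.41 in chow, -0.20 ± 0.46 in 1B, -1.32 ± 0.38 in HFD (SD, n = 4 each), and 0.69 ± 0.69 in HFD+1B (SD, n = 5). It rose with the binge on both diets, by 2.02 on HFD (adjusted p = 0.000317) and by 1.71 on chow (adjusted p = 0.00431). Nr4a1, an immediate early nuclear receptor, rose by 0.86 on HFD (adjusted p = 0.000498), had 0.13 on chow (adjusted p = 0.807), and its binge effects differed by 0.73 (adjusted p = 0.0488), a call lost in 11 of 17 fits without 1 mouse. On HFD it had -0.05 with the ribosomal RNA covariate. Both the 4 and the 7 include Fos. It was well above background on 5 of 5 HFD+1B arrays, 1 1B array, and 0 HFD and chow arrays. Fos entered the test through the HFD+1B group, where it is high, so no fold or p is given for it. Il6 entered the 12 in a like way, well above background on 4 arrays, 3 of them HFD+1B. For this reason nothing is read from these shares.

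Of 11 genes of the kallikrein-kinin system, whose peptide bradykinin is a substrate of Ace, 2 rose and 2 fell from HFD to HFD+1B (36.4%, beside 19.4% of all genes). Bdkrb1, the inducible bradykinin receptor, rose by 0.73 (adjusted p = 0.00282), from 3 HFD and 4 HFD+1B arrays since spots marked as outliers were left out. That rise was not called with Cy5 signal alone, and over 8 other settings it ran from 0.12 to 1.09. Cpn2, a subunit of the carboxypeptidase that inactivates kinins, fell by 0.56 (adjusted p = 0.00179), and Klkb1, plasma prekallikrein, fell by 0.54 (adjusted p = 0.0449), a call lost in 13 of 17 fits without 1 mouse. Neither fall was called with median centring or with Cy5 signal alone. Of 6 tested genes at the mineralocorticoid end, 1 rose, the kinase Sgk1, by 0.80 (SE 0.18, adjusted p = 0.00595). Sgk1 is also known as a target of glucocorticoids.

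The genes whose pattern was most like that of Agt over the 17 log2 ratios, among 15960 genes well above background on every array, were Lrrc8a (Pearson r = 0.948), Ccnl1 (0.942), Tiparp (0.940), Ptp4a1 (0.940), and Arl15 (0.938). Lrrc8a had a mean of 0.56 in HFD+1B, beside -0.80 in 1B, -0.90 in chow, and -1.21 in HFD. Tiparp covered a wider range, from -2.45 in chow to 0.74 in HFD+1B. The most opposed patterns were those of Hnrnpu (r = -0.914), Ppil2 (-0.888), and Prkd3 (-0.884), which were lowest in HFD+1B. The 17 points fall into 4 groups and share their arrays, so these values describe likeness across groups as much as between mice.

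**Figure D4:**
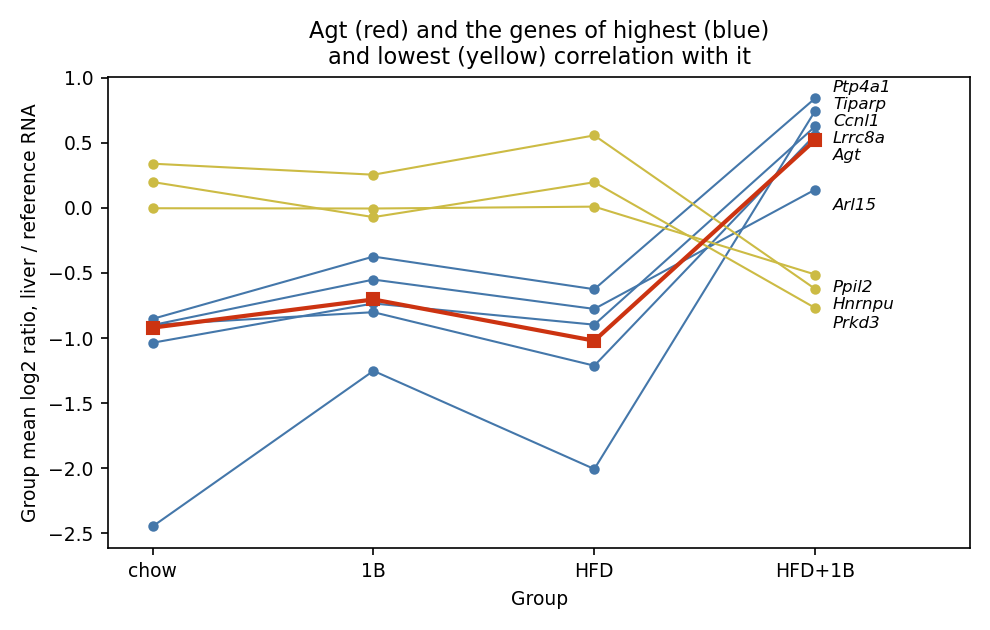
Group mean log2 ratio of liver to reference RNA (vertical axis) in chow, 1B, HFD, and HFD+1B (horizontal axis) for Agt, the 5 genes of highest correlation with it, and the 3 of lowest correlation, 1 line per gene. Agt and the 5 genes reach their highest mean in HFD+1B, between 0.14 and 0.84, and the 3 opposed genes their lowest, between -0.77 and -0.51.

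Ace was most like Cntn1 (r = 0.916), Prdm2 (0.910), and Ddx56 (0.905), all lowest in HFD. Agtr1a by its brighter probe was most like Ppard (0.887), Olfr544 (0.887), and Ephb4 (0.874), likewise lowest in HFD. Enpep had the weakest likeness to any gene, with Ptpla (0.739), Lad1 (0.736), and Ppp1r16b (0.719), all highest in 1B.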

How the data were processed

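Liver RNA of 17 mice was hybridized to 2-color Agilent arrays, 1 mouse an array. The authors extracted spots with Feature Extraction 11.5.1.1, and the deposited scanner files hold raw spot intensity for Cy5 (liver) and Cy3 (reference RNA, which the labels describe both as assorted mouse RNA and as liver). The authors also deposited a table of log2 ratios of their processed signals (largest difference from the scanner files' processed signals 2.7e-06), used as an alternative, whose probes without a row were not analysed here. Signals were corrected with normexp (offset 50), spots marked as outliers left out, ratios normalized by loess within arrays, and spots averaged per probe. Probes well above background in Cy5 on at least 4 of 17 arrays, with a value in each group, were tested (34650 probes, 19350 genes by the brightest probe). An offset of 50 compresses ratios of dim probes. Group means were fitted to all arrays with limma 3.58.1 in R 4.3.3 (13 residual degrees of freedom), with Benjamini-Hochberg adjustment over all probes. The number of arrays limits the precision. Alternatives changed the normalization, filter, probe choice, block, threshold, and arrays.

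The members and lists were chosen with earlier results of these data known. Named were all probes of the 4 members, Ren1, Agtr1b, Agtr2, Mas1, every other listed renin-angiotensin gene called in any comparison, the 3 genes of lowest adjusted p (0.05 or less) in HFD+1B minus HFD in each further list, and the genes most and least correlated with a member. 1 listed gene is counted but not reported here. Lists were written from general knowledge. RefSeq supplied the promoter, and the array was annotated on an older build, so no probe coordinates are given.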

Additional observations from a re-analysis of the deposited data

Results flagged for a closer look

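In 9 of 80 groups of a probe and a treatment examined, 1 mouse stood apart by Dixon's gap ratio, which is the gap to the nearest mouse over the range of the group, where chance alone would give about 4. Agt in 1B mouse 4 was highest, at -0.26 against -0.88 to -0.81 in the other 3 (ratio 0.884), and Agt in chow mouse 2 was highest, at -0.81 against -0.97 to -0.95 (ratio 0.836). Without 1B mouse 4 the Agt difference of 1B from chow was 0.07 in place of 0.22. For Ace, the probe that is above background in chow mouse 4 alone stood at 0.97 there against 0.01 in the others (ratio 0.993), and the dim further probe was highest in HFD mouse 4 (ratio 0.884), where it was not well above background.

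HFD mouse 3 stood apart 3 times, with Mcpt4 highest (ratio 0.934), and with Mme (ratio 0.845) and Nln (ratio 0.938) lowest. Mas1 was highest in HFD+1B mouse 3, at 0.30 against -0.80 to -0.48 (ratio 0.714), the mouse with the highest summed pericyte and smooth muscle markers. Ren1 was highest in HFD+1B mouse 4, at 0.19 against -0.23 to -0.15 (ratio 0.795).

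The interaction term of the limma fit, which is the difference of the binge effects on the diets, drew attention to 2 genes. Agt had 0.22 on chow and 1.54 on HFD, a difference of 1.32, given as a description with no test, since Agt was chosen on these differences. Mme had -1.06 on chow and 0.46 on HFD, a difference of 1.53 (adjusted p = 0.0412).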

How the results depend on the processing

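Over the alternatives that kept all arrays, 159 of 192 differences of Agt, Ace, Agtr1a, and Enpep moved by less than the SD between mice, 33 moved more, and 0 called values changed sign. All 408 values without 1 mouse moved by less. Leaving out 1 mouse shifts a group mean by only a part of that mouse's distance from it. This count could therefore hardly come out otherwise, and nothing is read from it. The cause of the changes between settings was not tested. With the ribosomal RNA ratio as a covariate, chosen after seeing the data, HFD minus chow was 0.32 for Agt, 0.090 for Ace, 0.22 for Agtr1a, and -0.18 for Enpep. In that fit HFD+1B minus HFD was -0.19 for Ace, 0.10 for Agtr1a, and 0.21 for Enpep, and the interaction 0.84 for Agt, -0.44 for Ace, 0.059 for Agtr1a, and -0.076 for Enpep. With Cy5 signal alone, HFD+1B minus HFD was 1.11 for Agt, 0.046 for Ace, and 0.15 for Agtr1a, HFD minus chow 0.0078 for Ace, 0.14 for Agtr1a, and -0.22 for Enpep, HFD+1B minus chow 0.054 for Ace, and the interaction 0.88 for Agt, -0.12 for Ace, 0.12 for Agtr1a, and -0.085 for Enpep. With median centring, HFD minus chow was -0.56 for Ace and -0.48 for Agtr1a, HFD+1B minus HFD 0.50 for Ace, 0.82 for Agtr1a, and 0.21 for Enpep, and the interaction 0.41 for Ace, 0.93 for Agtr1a, and -0.087 for Enpep. Averaged over probes, HFD minus chow was -0.14 for Ace, HFD+1B minus HFD 0.29 for Agtr1a, and its interaction 0.24.

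The count of other renin-angiotensin genes called in 1B minus chow was 2 with the authors' table, without background correction, with slide as a block, with signal above background on all 17 arrays, with probes averaged, and by the methods' unadjusted Tukey test, and 0 with Cy5 alone. Cy5 alone gave 0 in HFD+1B minus HFD, 0 in HFD+1B minus 1B, and 2 in HFD+1B minus chow, and turned HFD minus chow to 1 risen and 1 fallen. The authors' table gave 1 risen and 2 fallen there. The covariate gave 0 in HFD minus chow, 0 in HFD+1B minus HFD, 1 in HFD+1B minus 1B, and 0 in the interaction, and in the 3 comparisons at 0 it called 0 of all probes as well. Median centring gave 0 in HFD minus chow. A 2-fold threshold with an unadjusted p gave 0 in HFD minus chow and in each HFD+1B comparison. The unadjusted p alone gave 5 in 1B minus chow, 10 in HFD minus chow, 8 in HFD+1B minus HFD, 6 in HFD+1B minus 1B, and 3 in the interaction. The adjusted Tukey test gave 0 in HFD minus chow, 1 in HFD+1B minus HFD, 1 in HFD+1B minus 1B, and 3 in HFD+1B minus chow. No filter on dim probes gave 0 in the interaction.

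Without 1 mouse, the counts ran from 1 to 2 in 1B minus chow, 0 to 3 in HFD minus chow, 1 to 6 in HFD+1B minus HFD, 1 to 3 in HFD+1B minus 1B, 4 to 8 in HFD+1B minus chow, and 0 to 1 in the interaction. In HFD minus chow, 0 were called without chow mouse 4 and 1 without chow mouse 1 or HFD mouse 2, 3, or 4. In HFD+1B minus 1B, 1 was called without 1B mouse 1, 2, or 3 or HFD+1B mouse 3 or 4. Replicate numbers were not taken as pairs in the main fit, which holds no block for number or slide. Of 24 same-number pairs 16 correlated above 0.1 (median 0.179, lowest -0.126), beside 19 of 84 pairs of other numbers (median -0.0483). On the same slide 16 of 21 pairs did (median 0.195), beside 19 of 87 on other slides (median -0.0429). Arrays that share a slide or number were thus more alike, and the blocks were fitted as alternatives only. With the replicate block, on mice that share a number, the count was 2 in 1B minus chow and 2 in the interaction, and the split in HFD+1B minus chow was 1 risen and 5 fallen. Dim probes limit what the ratios can show, as for Agtr2 and the further Ace probes.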
